A study of Mus musculus with 4 samples.

Results

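Caspases are cysteine proteases that cut their substrates after aspartate. The inflammatory caspases, Casp1, Casp4 and Casp12 in mouse, lie side by side on 1 chromosome. The apoptotic caspases include the initiators Casp2, Casp8 and Casp9 and the executioner Casp6. These 7 genes were looked up by symbol among the 12208 genes of the deposited table, and 6 were found, 2 inflammatory and 4 apoptotic. Casp1 is not analysed here. All 6 passed the filter on low values.

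Expression was measured by RNA sequencing in a mouse line named 3T3 and labelled as pre-osteoblast. Cells were either control-treated (labelled NC) for 24 h or 48 h, or treated with lymphotoxin α1β2 (LTα1β2), a cytokine of the TNF family, for the same times. Each of the 4 groups was 1 library, and no label states a dose, a passage or which 3T3 subline was used. Depth ranged from 11355974 to 15995777 reads over the listed genes. Transcripts of the labelled lineage were present. Col1a1 was at 7356 to 15684 CPM (counts per 1000000) and Runx2 at 67.5 to 125.6 CPM. The osteocalcin genes were low, with Bglap at 1.33 CPM or less and Bglap2 at 2.99 to 4.25 CPM. Alpl and Ibsp are not analysed here. The read-weighted median length of merged exons was 4234 bases in the LTα1β2 48 h library against 4863 to 4994 in the other 3, so this library stood apart. Folds at 48 h declined with gene length (Spearman's rho = -0.395 across genes, which are not independent replicates), and 48 h values with that trend removed are given below where they matter.

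In mouse, Casp4 encodes the protease long known as caspase-11, which binds bacterial lipopolysaccharide in the cytosol and cuts gasdermin D, the pore former of pyroptosis. Its transcription is low in many resting cells and is known to be induced by interferons and NF-κB signals. Casp8 starts apoptosis below death receptors and also restrains necroptosis. Casp9 is activated on the Apaf1 scaffold after cytochrome c release, and Casp2 on the Pidd1 and Cradd scaffold. Casp6 is an executioner that cuts nuclear lamins.

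The promoter stretches of the 2 inflammatory members measured are shown because these genes had the largest folds of the 6. They come from RefSeq (GRCm38.p6, plus strand) and end just before the GENCODE M21 start of each gene, which lies upstream of its RefSeq start. The first is chr9:5308678-5308827 and the second chr9:5345280-5345429. Capitals mark matches to the NF-κB consensus in Casp4 and to TTCNNNGAA, a STAT motif, in Casp12.
Casp4: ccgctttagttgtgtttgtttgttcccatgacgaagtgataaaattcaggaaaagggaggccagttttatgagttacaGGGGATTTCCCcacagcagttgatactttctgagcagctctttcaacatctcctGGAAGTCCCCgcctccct
Casp12: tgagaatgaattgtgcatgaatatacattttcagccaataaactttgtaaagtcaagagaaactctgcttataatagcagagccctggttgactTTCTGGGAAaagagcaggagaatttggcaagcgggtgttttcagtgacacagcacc

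RefSeq promoter windows were found for all 7 listed genes. The 250 bases before the RefSeq start were searched on both strands for the 10-base NF-κB consensus, for the interferon-response core GAAANNGAA and for TTCNNNGAA. In Casp4 the NF-κB consensus matched in 2 places, GGGGATTTCCC, where matches overlap and lie on both strands, and GGAAGTCCCC on the minus strand. Of 11865 windows of genes in the table, 8.74% hold this consensus. None of the windows of the other listed caspases held a match to it. The Casp12 window held TTCTGGGAA at 2 places, of which the one nearer the RefSeq start lies beyond the printed stretch. TTCNNNGAA occurred in 5.74% of the windows of genes in the table and in no window of the other listed caspases. GAAANNGAA occurred in 6.12% of those windows and in none of the listed caspases. A match describes letters only, and a window without one says nothing about the factor.

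Casp4 rose with LTα1β2. Its level was 9.63 CPM in control at 24 h, 7.71 CPM in control at 48 h, 22.2 CPM after 24 h of LTα1β2 and 39.5 CPM after 48 h. Both treated libraries lay above both controls, and the treated 48 h library was highest. The share of all tested genes ordered this way was not taken, so here and for the other members the order is a description only. The ratio to the control of the same time was 2.30 at 24 h (95% counting interval 1.90 to 2.80) and 5.13 at 48 h (4.12 to 6.43). Those intervals do not overlap, but they cover counting error only and the difference between times was not tested. Between the controls Casp4 changed by a ratio of 0.801 (0.617 to 1.04), and between the treated libraries by 1.78 (1.55 to 2.06).

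With 1 library per group, the test used was a limma fit with terms for time and for treatment, in which the 2 times stand in for repeats of the treatment. In it the Casp4 log2 fold was 1.67 ± 0.19 (SE; adjusted p = 2.3e-16, limma). That fit drew the variance of a gene wholly from genes of like level. With 9.78 prior degrees of freedom, which lets the gene's own variance count, the adjusted p was 0.0156 (limma). Without the LTα1β2 48 h library and without a time term the Casp4 log2 fold was 1.27 (adjusted p = 1.14e-08, limma). With the length trend removed its log2 fold at 48 h was 2.24, against 2.22 as measured.

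Casp12 also rose, but by less, and most of the difference was at 48 h. Casp12 encodes an endoplasmic reticulum-associated caspase whose function is less settled. Its level was 22.6 and 21.1 CPM in control at 24 h and 48 h, and 28.6 and 48.5 CPM with LTα1β2. As for Casp4, both treated libraries were above both controls. The ratio was 1.27 at 24 h (1.10 to 1.46) and 2.29 at 48 h (1.98 to 2.66), and between controls 0.937 (0.798 to 1.10). In the additive fit the log2 fold was 0.75 ± 0.18 (SE; adjusted p = 0.0016, limma). That call was lost without the LTα1β2 48 h library (log2 fold 0.37, adjusted p = 0.147, limma) and with 9.78 prior degrees of freedom (adjusted p = 0.195, limma). It was also lost with median-of-ratios rescaling, where the log2 fold was 0.78 (adjusted p = 0.0982, limma). The rescaled fit itself had 9.78 prior degrees of freedom, so these settings are not independent checks. Without the 24 h or the 48 h control the call was lost as well (log2 folds 0.79 and 0.70).

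So 2 of the 6 members rose and 0 fell, where 2.92% of the 12160 tested genes rose and 2.27% fell. At an unadjusted limma p below 0.05 there were 3 members, Casp4, Casp12 and Casp8, all higher. No share of all tested genes was taken at this level, here or for the lists below. Such counts are therefore not read as an excess. By size alone, Casp4 was at least 2-fold higher on the log2(CPM + 1) scale at 24 h, as were 0.345% of tested genes. Casp4 and Casp12 were at 48 h, as were 1.86%, and Casp4 was the one member at both times, as were 0.214%.

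**Figure D1:**
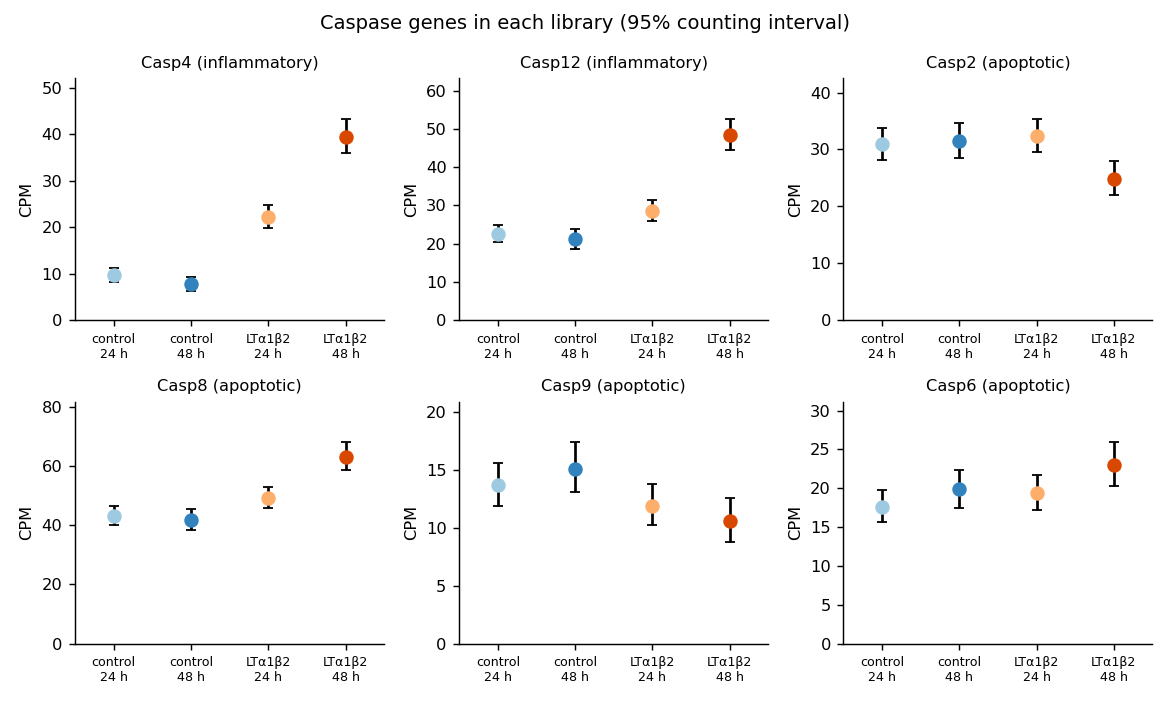
Level of each caspase gene in CPM (y axis, from 0) in the 4 libraries (x axis); points are single libraries and bars 95% exact Poisson intervals of the reads. Casp4 and Casp12 are higher in both LTα1β2 libraries than in both controls, with Casp4 at 39.5 CPM after 48 h, while Casp9 is lower in both.

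Among the initiators, Casp8 was the most abundant member in every library. It was at 43.0 and 41.8 CPM in control at 24 h and 48 h and at 49.2 and 63.1 CPM with LTα1β2. Both treated values exceeded both controls, with ratios of 1.14 (1.03 to 1.27) and 1.51 (1.35 to 1.69). Its log2 fold of 0.39 ± 0.17 (SE) did not pass the adjustment (adjusted p = 0.206, limma). Without the LTα1β2 24 h library and the time term it was 0.56 (adjusted p = 7.19e-06, limma), in a fit that called 4949 genes.

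Casp9 was the one member lower in both treated libraries than in both controls, again with no share over all tested genes taken. It was at 13.7 and 15.1 CPM in control and at 11.9 and 10.6 CPM with LTα1β2. The ratio was 0.872 at 24 h (0.712 to 1.07) and 0.699 at 48 h (0.552 to 0.881), and the fitted log2 fold -0.33 ± 0.19 (SE; adjusted p = 0.399, limma). In GENCODE M21 the Casp9 gene model is overlapped on the other strand by Cela2a and Ctrc, and no source used here tells if reads were assigned by strand. Casp2 and Casp8 each overlap a minor model on their own strand, Gm25108 and Gm37760.

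Casp2 was at 30.9, 31.5 and 32.4 CPM in the 24 h control, the 48 h control and the LTα1β2 24 h library, and at 24.8 CPM in the LTα1β2 48 h library. Only that last library was lower, with a ratio of 0.789 (0.676 to 0.921) against 1.05 at 24 h (0.925 to 1.19). Casp2 has the longest merged exons of the members, 7057 bases, and with the length trend removed its 48 h log2 fold was -0.17 against -0.33 as measured. Its fitted log2 fold was -0.13 ± 0.18 (SE; adjusted p = 0.806, limma).

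The executioner Casp6 was at 17.6 and 19.9 CPM in control and at 19.4 and 23.0 CPM with LTα1β2. The treated 24 h value lay between the controls, so the groups overlap. Its ratios were 1.10 (0.928 to 1.30) and 1.16 (0.971 to 1.38), and its adjusted p was 0.754 (limma).

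**Figure D2:**
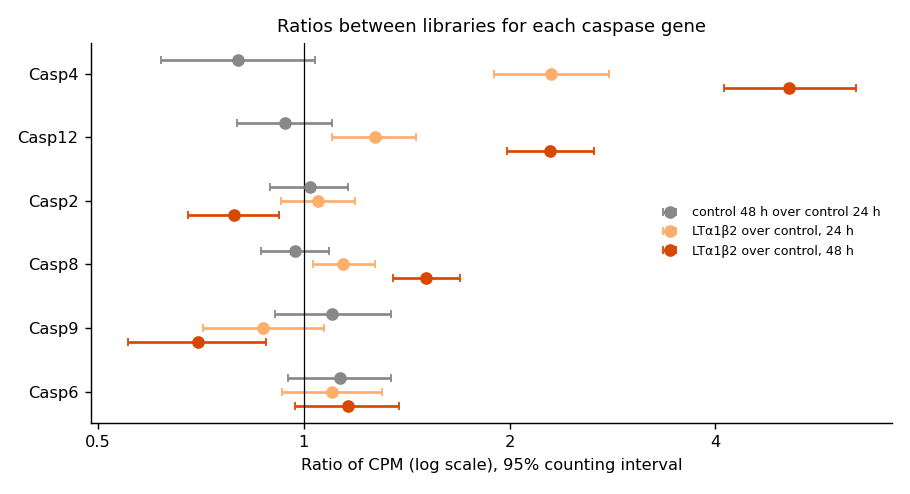
Ratio of CPM between 2 libraries for each caspase gene (x axis, log scale) with 95% counting intervals; grey compares the controls with each other and orange and red compare LTα1β2 with control at 24 h and 48 h. Every grey interval spans 1, and the red points run from 0.699 for Casp9 to 5.13 for Casp4.

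Per kilobase of merged exon, Casp4 shared the lowest place in control at 24 h. The order was Casp8 at 14.9 CPM per kilobase, Casp12 at 5.88, Casp2 at 4.38, Casp6 at 3.16, Casp9 at 2.63 and Casp4 at 2.60. The counting intervals of the last 3 overlap (Casp4 2.20 to 3.05), so their order is not resolved. In control at 48 h Casp4 was lowest, at 2.08 CPM per kilobase (1.69 to 2.53), an interval that just meets that of Casp9 (2.52 to 3.35). After 24 h of LTα1β2 Casp4 stood at 5.97 CPM per kilobase, behind only Casp8 at 17.0 and Casp12 at 7.45. After 48 h the same genes were above it, with Casp4 at 10.7 (9.70 to 11.7) against 12.6 for Casp12 (11.6 to 13.7), whose interval it overlaps. These levels rest on the annotated exons and on no measured isoform.

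The inflammatory and apoptotic classes were then compared within each library. Casp4 and Casp12 took 23.4% of the reads of the 6 members in control at 24 h (95% exact Clopper-Pearson interval 21.7 to 25.3) and 21.1% in control at 48 h (19.2 to 23.0). With LTα1β2 the share was 31.0% at 24 h (29.2 to 32.9) and 42.0% at 48 h (40.0 to 44.0). The intervals of the controls overlap each other and neither treated interval. The summed inflammatory level was 32.2 and 28.9 CPM in control and 50.8 and 88.1 CPM with LTα1β2, and the summed apoptotic level 105.2 and 108.2 CPM in control and 112.9 and 121.5 CPM with LTα1β2. As ratios, the inflammatory sum was 1.58 (1.41 to 1.77) at 24 h and 3.05 (2.71 to 3.44) at 48 h, and the apoptotic sum 1.07 (1.00 to 1.15) and 1.12 (1.04 to 1.21). In the apoptotic sum at 48 h, higher Casp8 and Casp6 reads stood against lower Casp2 and Casp9 reads.

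The mean log2 fold of the 2 inflammatory members exceeded that of the 4 apoptotic members by 0.68 at 24 h and by 1.69 at 48 h. The median log2 fold over all 6 members was 0.16 at 24 h and 0.39 at 48 h, beside 0.02 and -0.09 over all tested genes. Genes are not replicates of a condition, so no test was made of the classes. These are bulk samples, in which more RNA per cell and a change in which cells are present cannot be told apart. Of 8 macrophage markers 3 were measured, none of them called, with a summed level of 65.1 and 75.4 CPM in control and 57.4 and 85.9 CPM with LTα1β2, nearly all of it Lyz2. Csf1r was at 0.793 to 1.56 CPM, and Ptprc, Adgre1 and Itgam are not analysed here. Of 10 tested osteoblast-lineage markers 6 fell, against 2.27% of all tested genes, but 3 did with rescaling or with 9.78 prior degrees of freedom and 1 without either control. Their summed level was 33604 and 33142 CPM in control and 23692 and 20234 CPM with LTα1β2 at 24 h and 48 h. Most of it was Col1a1 and Col1a2, of which Col1a2 did not pass (adjusted p = 0.212, limma). Spp1 of this list was higher, with ratios of 1.16 and 1.45 (adjusted p = 0.337, limma). Of 6 tested fibroblast and mesenchymal markers 2 fell, Pdgfrb and Fn1, and 1 rose, S100a4, and 0 passed with rescaling or with 9.78 prior degrees of freedom. The part of other cells and of these lineage markers in the caspase values was not tested.

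**Figure D3:**
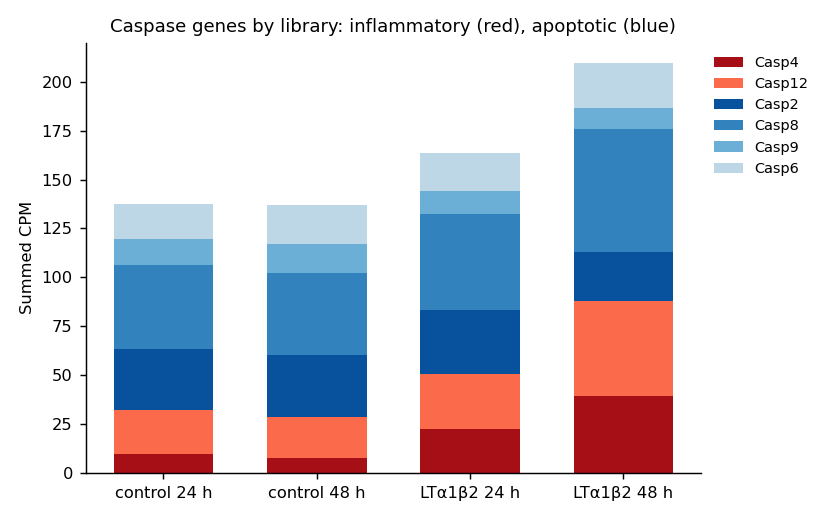
Summed CPM of the 6 caspase genes (y axis, from 0) in each library (x axis), stacked by gene with inflammatory genes in red and apoptotic genes in blue. The red part grows from 32.2 and 28.9 CPM in the controls to 50.8 and 88.1 CPM with LTα1β2, and the blue part from 105.2 and 108.2 to 112.9 and 121.5.

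Casp4 and Casp12 are neighbours, so the genes around them were examined. By GENCODE M21 coordinates (GRCm38; the build behind the deposited table is not known here), Casp4 spans chromosome 9 from 5308828 to 5336783 and Casp12 from 5345430 to 5373032, both on the plus strand. Casp1, on the same strand, ends at 5307265, and no other gene model lies in the interval. The 3 nearest tested genes on the Casp1 side, Aasdhppt, Kbtbd3 and Msantd4, and the 3 on the Casp12 side, Pdgfd, Dync2h1 and Dcun1d5, did not pass (adjusted p from 0.207 to 0.997, limma). The nearest of them, Pdgfd, lies 795.6 kilobases away and had ratios of 0.892 at 24 h and 1.12 at 48 h. The farthest, Dcun1d5, had ratios of 0.991 and 1.74.

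**Figure D4:**
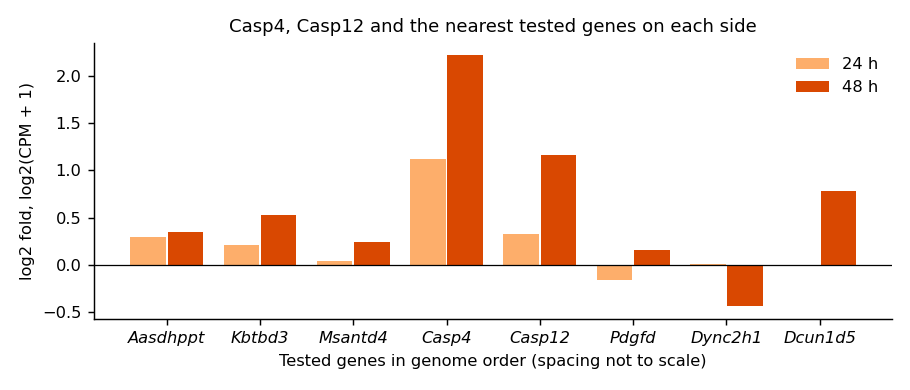
Log2 fold of LTα1β2 over control from log2(CPM + 1) (y axis) at 24 h (light bars) and 48 h (dark bars) for Casp4, Casp12 and the 3 nearest tested genes on each side, in genome order (x axis, not to scale). Casp4 has the tallest bars, 1.12 and 2.22, followed at 48 h by Casp12 at 1.16.

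Genes whose profile over the 4 libraries was most like that of Casp4 were ranked among 10359 genes with a mean of at least 5 CPM, by the root mean square difference of centred log2(CPM + 1). The 5 nearest were Tnfrsf9 (0.113), a TNF receptor family gene, the schlafen gene Slfn2 (0.130), the nucleic acid sensor gene Zbp1 (0.185), the invariant chain gene Cd74 (0.199) and the GTPase gene Gbp3 (0.207). Tnfrsf9 was at 4.94 and 3.74 CPM in control and at 10.7 and 17.5 CPM with LTα1β2. Casp12 ranked 60th, Casp8 658th and Casp6 2081st in likeness to Casp4, and Casp2 and Casp9 lay at ranks 7484 and 8988. With 4 libraries and 2 conditions many genes share this shape, and the ranks are a description only.

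Genes linked to caspases, including possible regulators, were followed in 13 lists holding 142 genes, of which 109 were tested. Of these, 18 rose (16.5%, against 2.92% of all tested genes) and 0 fell. At an unadjusted limma p below 0.05 there were 32 higher and 1 lower. The lists were chosen with earlier results of these data known, so the shares are not a test of the lists. Of the 18, 8 came from the list of guanylate-binding and related GTPases and 4 from that of transcription factors and interferon receptors. The median log2 fold of the 109 genes was 0.17 at 24 h and 0.14 at 48 h, beside 0.02 and -0.09 over all tested genes. The 18 became 11 with rescaling, 8 with 9.78 prior degrees of freedom, 4 without the 24 h control and 3 without the 48 h control. They became 26, with 1 lower, with the length trend removed, in a fit that called 508 of all genes higher and 389 lower. Without the LTα1β2 24 h or the LTα1β2 48 h library more listed genes passed, higher and lower, but so did more of all genes. The counts per list below share this limit, and the 2.92% of all tested genes that rose also stands beside them.

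Guanylate-binding proteins and immunity-related GTPases open pathogen vacuoles and, in mouse, bring lipopolysaccharide to caspase-11. Of 12 tested genes of this list 8 rose, against 2.92% of all tested genes. Median log2 folds were 0.35 and 0.93, beside 0.02 and -0.09 over all tested genes. All 12 were above control at both times, but at 24 h Irgm1 and Igtp were so by log2 folds of only 0.03 and 0.02. No share of all tested genes above control at both times was taken. Gbp5 was at 2.38 and 1.53 CPM in control and at 6.21 and 8.28 CPM with LTα1β2 (2.61-fold and 5.42-fold; adjusted p = 5.49e-09, limma). Gbp3 was at 43.4 and 39.7 CPM in control and at 72.0 and 157.5 CPM with LTα1β2. Gm12250, the gene of Irgb10, was at 3.25 and 2.52 CPM in control and at 3.74 and 18.5 CPM with LTα1β2, so only the 48 h library was high. The others that rose were Gbp2, Gbp4, Gbp6, Gbp7 and Gbp9; these genes are alike in sequence and can share reads. The count was 4 with rescaling and with 9.78 prior degrees of freedom, in fits that called 94 and 39 of all genes higher. It was lower without the LTα1β2 48 h library and without either control. It was higher without the LTα1β2 24 h library, in a fit that also called more of all genes.

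Of 4 tested substrates and executors of pyroptosis 0 passed in limma, with 1 higher at an unadjusted p below 0.05. That gene was Gsdmd, the caspase-11 substrate gene, which was higher in both treated libraries, at 17.1 and 19.4 CPM against 11.8 and 13.8 CPM in control. Its ratios were 1.45 (1.19 to 1.75) and 1.40 (1.15 to 1.72), with a log2 fold of 0.48 ± 0.19 (SE; adjusted p = 0.124, limma). Il18, a cytokine gene whose product is matured by caspase-1, was at 4.75 and 4.81 CPM in control, 3.74 CPM at 24 h of LTα1β2 and 9.33 CPM at 48 h. Of 8 tested inflammasome sensors and adaptors (18 listed) 1 rose, Nod2, a sensor of bacterial muramyl dipeptide, at 2.13 and 1.53 CPM in control and at 3.20 and 3.96 CPM with LTα1β2 (adjusted p = 0.0469, limma). In this list 0 genes were called with a pseudocount of 0.25, with rescaling, with 9.78 prior degrees of freedom or without either control. The adaptor Pycard and the sensors Nlrp3 and Nlrc4 are not analysed here. Aim2, a DNA sensor gene, was at 1.81 to 2.82 CPM and did not pass (adjusted p = 0.621, limma).

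**Figure D5:**
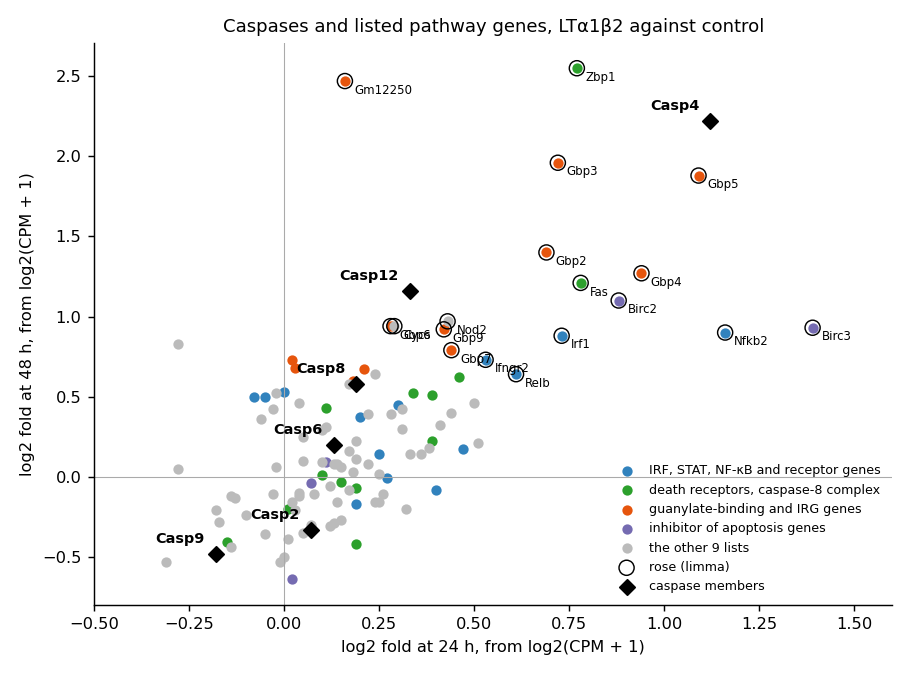
Log2 fold at 24 h (x axis) against log2 fold at 48 h (y axis), from log2(CPM + 1), for the 6 caspase genes (black diamonds) and 109 tested pathway genes (points, coloured by list); ringed pathway genes rose in the limma fit, and the diamonds carry no ring. Casp4 lies at 1.12 and 2.22, while the 4 apoptotic members lie between -0.48 and 0.58 at 48 h.

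Of 13 tested genes of death receptors and the caspase-8 complex 2 rose. Fas, the death receptor that recruits caspase-8, was at 30.4 and 26.8 CPM in control and at 52.8 and 63.2 CPM with LTα1β2 (adjusted p = 1.86e-06, limma). Zbp1, which can engage the necroptosis kinase Ripk3, was at 6.94 and 4.66 CPM in control and at 12.5 and 32.1 CPM with LTα1β2 (adjusted p = 7.32e-15, limma). Cflar, which encodes the caspase-8 inhibitor c-FLIP, was at 83.1 and 66.0 CPM in control and at 88.9 and 66.3 CPM with LTα1β2 (adjusted p = 0.931, limma). The count was 1 with 9.78 prior degrees of freedom and without either control. It was 6 after removal of the length trend, in a fit that called 508 of all genes higher. Leaving out the LTα1β2 24 h or the LTα1β2 48 h library also raised the count, in fits that called more of all genes higher. Some genes of the list were called lower without the LTα1β2 24 h library.

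Of 5 tested inhibitor of apoptosis genes 2 rose, Birc2 (1.88-fold and 2.20-fold) and Birc3 (2.80-fold and 1.97-fold), the ubiquitin ligases of TNF receptor complexes. The count was 0 without the 24 h control and 1 without the 48 h control. Xiap, which binds caspase-9 directly, was at 129.6 CPM in both controls and at 135.7 and 126.2 CPM with LTα1β2 (adjusted p = 0.983, limma). In the apoptosome and mitochondrial list 1 of 13 tested genes rose, Cycs, the cytochrome c gene, at 63.4 and 63.3 CPM in control and at 77.8 and 122.5 CPM with LTα1β2 (adjusted p = 0.00966, limma). That call was lost with rescaling, with 9.78 prior degrees of freedom and without either control. More genes of the list rose without the LTα1β2 24 h library, in a fit that also called more of all genes. Apaf1 was at 58.3 and 56.9 CPM in control and at 64.5 and 50.8 CPM with LTα1β2 (adjusted p = 0.992, limma).

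In each of the remaining lists but 1, 0 genes passed. These were 4 other caspase genes, 4 anti-apoptotic BCL2 genes, 4 genes of the caspase-2 scaffold, 12 caspase substrates of apoptosis, 5 serpin and related inhibitors and 11 genes of endoplasmic reticulum stress. Over these lists and that of pyroptosis, 44 genes in all, 3 were higher and 1 lower at an unadjusted limma p below 0.05. Casp12 has been linked to endoplasmic reticulum stress, and its sensors and effectors had median log2 folds of 0.10 and -0.06. Ddit3, which encodes CHOP, was at 77.3 and 88.3 CPM in control and at 80.3 and 105.6 CPM with LTα1β2 (adjusted p = 0.751, limma).

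The last list held genes of IRF, STAT, NF-κB and C/EBP factors and of interferon receptors, several of which are known in mouse to act on Casp1 or Casp4. Of 14 tested 4 rose. Irf1 was at 69.8 and 63.4 CPM in control and at 116.5 and 117.9 CPM with LTα1β2 (adjusted p = 0.00020, limma), so it was as high at 24 h as at 48 h. Nfkb2, Relb and the receptor gene Ifngr2 also rose, with log2 folds of 1.03, 0.63 and 0.63. The count was 1 with 9.78 prior degrees of freedom, in a fit that called 39 of all genes higher. All of these calls were lost without either control. More genes of the list passed without either LTα1β2 library, in fits that also called more of all genes. No value here ties any of these factors to Casp4.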

How the data were processed

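Per the labels' protocols, total RNA was extracted with RNAiso Plus and strand-keeping NEBNext libraries were read as 150 bp pairs on a NovaSeq. The authors deposited CPM values for 12208 genes, and edgeR 3.30.0 is among the tools in the submitters' processing notes. No aligner, counter, build or filter is named in the sources used here. A table of mouse gene names gave symbols for 12205 identifiers, and GENCODE M21 gave exon lengths. The even step between low CPM values gave the worth of 1 read, with 100% of values whole within 0.01 of a read. The lowest value is 9 to 12 reads. Reads served only for counting intervals, which do not cover differences between cultures.

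A log2 fold is the difference between libraries in log2(CPM + 1), a scale that shrinks changes of low genes. The additive model was fitted in limma 3.58.1 (R 4.3.3, trended, two-sided, Benjamini-Hochberg 0.05) over the 12160 genes whose CPM averaged 1 or more, with 1 residual degree of freedom and infinite estimated prior degrees of freedom. The labels do not state separate cultures, so spread between libraries may be technical. Named genes were the members, up to 4 per list by mean fold, a fixed set, the 5 nearest to Casp4 and 3 neighbours a side; other genes that passed were named after their values were seen. Members and lists were chosen with earlier results of these data known. Some results are not reported here.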

Additional observations from a re-analysis of the deposited data

Results flagged for a closer look

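Casp2 was flagged because its folds pointed opposite ways at the 2 times, 1.05 at 24 h and 0.789 at 48 h; the 24 h interval spans 1. Apaf1 went from 1.11 at 24 h to 0.893 at 48 h, and Lyz2 from 0.873 to 1.15, with counting intervals on opposite sides of 1. Each value compares 2 single libraries, and the differences between times were not tested.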

How the results depend on the processing

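The Casp4 log2 fold stayed past the threshold in all 12 other settings run, between 1.27 and 2.07 (adjusted p from 1.25e-27 to 0.0156, limma), and Casp12 in 7 of 12 (0.37 to 1.12). Of all genes 631 were called, against 172 with median-of-ratios rescaling and 64 with 9.78 prior degrees of freedom. The rescaled fit also had 9.78 prior degrees of freedom, where the main fit had infinite, so both settings share this change. Leaving out each library in turn, with no time term, gave 22 to 4949 calls: 22 without the 48 h control, 31 without the 24 h control, 772 without the LTα1β2 48 h library and 4949 without the LTα1β2 24 h library. The 2 calls among the members became 1 with rescaling, with 9.78 prior degrees of freedom and without the LTα1β2 48 h library or either control, and 3, with Casp8 added, without the LTα1β2 24 h library. Casp2 turned to 0.06 without the LTα1β2 48 h library. The excess of inflammatory over apoptotic folds at 48 h was 1.41 with a pseudocount of 5. Counting Casp4 alone as inflammatory gave shares of 8.38% and 6.65% in control and 16.4% and 24.5% with LTα1β2 at 24 h and 48 h. The cause of these changes was not tested. Pseudocounts of 0.25 and 5, other filters, no trend and length-trend removal kept both member calls. The planned edgeR fit was not run: the lowest value is 9 to 12 reads, so the recovered reads rest on the spacing of values alone and were kept for counting intervals. With 1 library per group, depth limits the intervals and not the comparison of cultures.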
